A study of Mus musculus with 12 samples.

Results

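Nrn1, Map2, Ptprz1, Ncam1 and Nkain4 are genes known mainly from the nervous system. Their transcripts were followed in cultured mouse heart fibroblasts given a ligand of platelet-derived growth factor (PDGF) receptors or an inhibitor of them. The 5 genes were picked by symbol for opposite or large responses to the ligand PDGF-AB and the inhibitor AG1296, out of 19938 genes measured, and each had 1 probe set. Their values against untreated cells are therefore a description, with no test. The cells were cardiac colony forming units - fibroblast (cCFU-F) at P0, sorted from hearts of C57BL/6 male mice aged 12 weeks as SCA1+PDGFRα+CD31- and grown in bulk. The groups were cells given 50 ng/ml PDGF-AB, cells given AG1296 at a dose of 10 uM, cells given it at 1 uM, and untreated cells, with 3 arrays per group and 12 in all. The small molecule AG1296 blocks the kinase activity of PDGF receptors, and also that of Kit. Neither the treatment time nor a vehicle is named in the labels, so a vehicle effect cannot be told apart from an effect of the treatments. Values are log2 expression, and a difference of 1 is a 2-fold change. No label ties an array to a culture or an animal, so p-values measure only the spread between arrays, which may be technical.

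PDGF-AB binds the receptor tyrosine kinases PDGFRα and PDGFRβ, which signal through the ERK and PI3K pathways and drive growth and migration of mesenchymal cells. Neuritin, the product of Nrn1, is a small membrane-anchored protein that is induced by neuronal activity and promotes neurite growth. Map2 encodes a microtubule-associated protein of dendrites, and Ptprz1 a receptor-type tyrosine phosphatase of glia whose extracellular part binds pleiotrophin, midkine, tenascins and contactins. Ncam1 encodes the neural cell adhesion molecule, an immunoglobulin-domain protein that binds itself on neighbouring cells. Nkain4 belongs to a small family of membrane proteins that interact with the beta-1 subunit of the sodium-potassium ATPase.

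The 5 genes lie on 5 different chromosomes, in GRCm38.p6 coordinates. Nrn1 spans chr13:36725622-36734477, Map2 chr1:66175202-66442583 and Ptprz1 chr6:22875315-23052916. Ncam1 spans chr9:49502129-49799393 and Nkain4 chr2:180934766-180954937. RefSeq promoter windows, 250 bases before to 50 after the transcript start, were available for 2 of the 5, Map2 (chr1:66175079-66175378, plus strand) and Ptprz1 (chr6:22875252-22875551, plus strand). Mean levels of both transcripts were lower with PDGF-AB and higher with AG1296 at either dose. The windows are shown with CG pairs in capitals and the strand of the gene read 5′ to 3′.
Map2: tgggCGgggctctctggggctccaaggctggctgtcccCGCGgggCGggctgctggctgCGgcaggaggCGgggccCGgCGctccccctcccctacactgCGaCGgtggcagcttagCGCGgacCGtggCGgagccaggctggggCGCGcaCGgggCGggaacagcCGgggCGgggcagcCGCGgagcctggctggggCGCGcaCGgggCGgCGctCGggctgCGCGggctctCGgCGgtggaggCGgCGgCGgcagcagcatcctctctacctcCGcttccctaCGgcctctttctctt
Ptprz1: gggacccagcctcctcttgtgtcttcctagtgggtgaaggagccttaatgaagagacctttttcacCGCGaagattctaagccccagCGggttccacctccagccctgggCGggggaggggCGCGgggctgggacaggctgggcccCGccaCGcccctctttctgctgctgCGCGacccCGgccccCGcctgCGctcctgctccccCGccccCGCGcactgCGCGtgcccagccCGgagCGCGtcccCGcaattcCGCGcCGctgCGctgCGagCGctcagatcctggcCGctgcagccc

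Both windows were rich in G and C, with 77.7% and 37 CG pairs for Map2 and 71.7% and 29 CG pairs for Ptprz1, against medians of 52.7% and 7 over 32851 RefSeq promoter windows of the same length. A total of 9 motifs were searched on both strands, and neither window held a match. The motifs were TGANTCA (AP-1, held by 7.81% of all windows), TGACGTCA (CRE, 1.79%), CCGGAAGT (ETS, 3.89%), GGAATG (TEAD, 14.7%), GTAAACA (FOXO, 3.65%), GCGTGGGCG (EGR, 0.612%), the SRF CArG box (1.63%) and 2 half-sites of REST, TTCAGCACC (0.371%) and the longer one (0.137%). No overlap between motifs arose, since none was present.

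Across all probe sets the arrays had medians of 4.02 to 4.13, and within a group r across genes, which are not independent replicates, was 0.992 to 0.996. PDGF-AB replicate 1 had the lowest mean correlation with the other groups, 0.990. Fibroblast markers were present: all 10 that were measured lay above the median of all genes in every group, among them Col1a1, Col3a1, Dcn and Tcf21. Ly6a, which encodes SCA1, was not analysed here. Of 16 neuron markers measured, 15 lay below that median in every group, and the exception was Uchl1, a ubiquitin hydrolase. Of the fibroblast markers 3 rose and 1 fell with AG1296 10 uM and 3 rose and 2 fell with AG1296 1 uM (1.88% and 3.2% of all genes passed at these doses). Single arrays decided several of these calls: Col3a1 at 1 uM (adjusted p = 0.048) was lost without any 1 array other than PDGF-AB replicate 1 or 3, under quantile normalization and under median centring (up to 0.164), and so was Pdgfra at 10 uM without any 1 of the same 10 arrays (up to 0.152). Col1a1 was lost at 10 uM without untreated replicate 1 or 2 or AG1296 10 uM replicate 1 or 3 (up to 0.0856), and at 1 uM without untreated replicate 2 or AG1296 1 uM replicate 1 or 3 (up to 0.0684). The matrix proteoglycan gene Dcn was at 8.39 ± 0.10 and 9.35 ± 0.17 at these doses, against 7.64 ± 0.04 in untreated cells (log2 mean ± SD, n = 3; limma, adjusted p = 0.00155 and 8.21e-07). All 8 endothelial markers, including Pecam1 (CD31), lay below it in every group, and so did 6 of 7 leukocyte, 5 of 6 cardiomyocyte and 5 of 6 pericyte markers. The mean of the pericyte markers ran from 4.0 to 4.04 with PDGF-AB and 3.92 to 3.96 with AG1296 10 uM. It ran from 3.69 to 3.85 with AG1296 1 uM, against 3.64 to 3.83 in untreated cells. With PDGF-AB 0 of 6 passed the limma test (0.331% of all genes), while 2 had an unadjusted p under 0.05 (8.55% of all genes). With an intensity trend and robust moderation 2 passed, and the share of all genes under that setting is not given. The neural-type genes were thus measured in cells whose arrays held little signal for 15 of the 16 listed neuron markers. Neuronal microtubule genes, counted below, were not in that list and lay on both sides of the median of all genes. In untreated cells Tubb3 was at 9.09 and Dcx at 2.35.

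Nrn1 was high with the ligand and low with the inhibitor. It read 8.40, 8.40 and 8.63 with PDGF-AB, 5.52, 5.68 and 5.70 with AG1296 10 uM and 4.12, 4.78 and 4.76 with AG1296 1 uM, against 7.14, 7.33 and 7.20 in untreated cells. No group overlapped another, and the order of levels ran PDGF-AB, untreated, AG1296 10 uM, AG1296 1 uM, with gaps of 1.07, 1.44 and 0.74 between neighbouring groups. Nrn1 was 2.38-fold higher with PDGF-AB (log2 fold change 1.25 ± 0.15, SE, n = 3), 3.01-fold lower with AG1296 10 uM (-1.59 ± 0.15) and 6.37-fold lower with AG1296 1 uM (-2.67 ± 0.15). AG1296 1 uM replicate 1, at 4.12, lay below the median of all genes on its array, where background limits a fold, and without it the difference at 1 uM was -2.46. In bulk cultures, fewer cells with a transcript and less of it per cell cannot be told apart.

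Map2 was low with the ligand and high with the inhibitor. It read 6.56, 6.23 and 6.00 with PDGF-AB, 8.32, 8.37 and 8.33 with AG1296 10 uM and 8.31, 8.33 and 8.15 with AG1296 1 uM, against 7.31, 7.37 and 7.18 in untreated cells. PDGF-AB arrays lay below and AG1296 arrays above all untreated arrays, while the ranges of the 2 doses overlapped. The log2 fold changes were -1.02 ± 0.12 with PDGF-AB, 1.06 ± 0.12 at 10 uM AG1296 and 0.98 ± 0.12 at 1 uM (SE, n = 3). The 2 inhibitor differences lay within 1 SE of each other and were close in size to that with the ligand.

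Ptprz1 shared the direction of Map2 in each treatment. It read 3.54, 4.63 and 4.49 with PDGF-AB, 6.18, 6.41 and 6.15 with AG1296 10 uM and 5.78, 5.97 and 5.81 with AG1296 1 uM, against 5.56, 5.54 and 5.32 in untreated cells. No group overlapped another. The log2 fold changes were -1.25 ± 0.21 with PDGF-AB, 0.77 ± 0.21 at 10 uM AG1296 and 0.38 ± 0.21 at 1 uM (SE, n = 3). PDGF-AB replicate 1 stood below the other arrays of its group and under the median of all genes on its array, and without it the difference from untreated cells was -0.91.

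Ncam1 was high with the inhibitor, and with the ligand its arrays overlapped those of untreated cells. It read 5.11, 4.95 and 5.15 with PDGF-AB, 5.53, 5.62 and 5.49 with AG1296 10 uM and 5.79, 5.86 and 5.83 with AG1296 1 uM, against 5.08, 5.29 and 4.96 in untreated cells. PDGF-AB and untreated arrays overlapped, and both AG1296 groups lay above them. The log2 fold changes were -0.04 ± 0.10 with PDGF-AB (95% interval -0.25 to 0.17), 0.44 ± 0.10 at 10 uM AG1296 and 0.72 ± 0.10 at 1 uM (SE, n = 3). The range of its group means, 0.75, was the smallest of the 5 genes, and that of Nrn1, 3.92, the largest.

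Nkain4 was low with the ligand. It read 6.71, 7.02 and 7.39 with PDGF-AB, 7.81, 7.72 and 7.70 with AG1296 10 uM and 8.11, 8.03 and 8.23 with AG1296 1 uM, against 7.86, 7.84 and 7.78 in untreated cells. PDGF-AB arrays lay below all others, AG1296 10 uM overlapped untreated cells, and AG1296 1 uM lay above them. The log2 fold changes were -0.79 ± 0.13 with PDGF-AB, -0.08 ± 0.13 at 10 uM AG1296 and 0.30 ± 0.13 at 1 uM (SE, n = 3). Within the PDGF-AB group, replicate 1 had the lowest Nkain4 and Ptprz1 and the highest Map2, while replicate 3 had the highest Nkain4 and the lowest Map2.

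**Figure D1:**
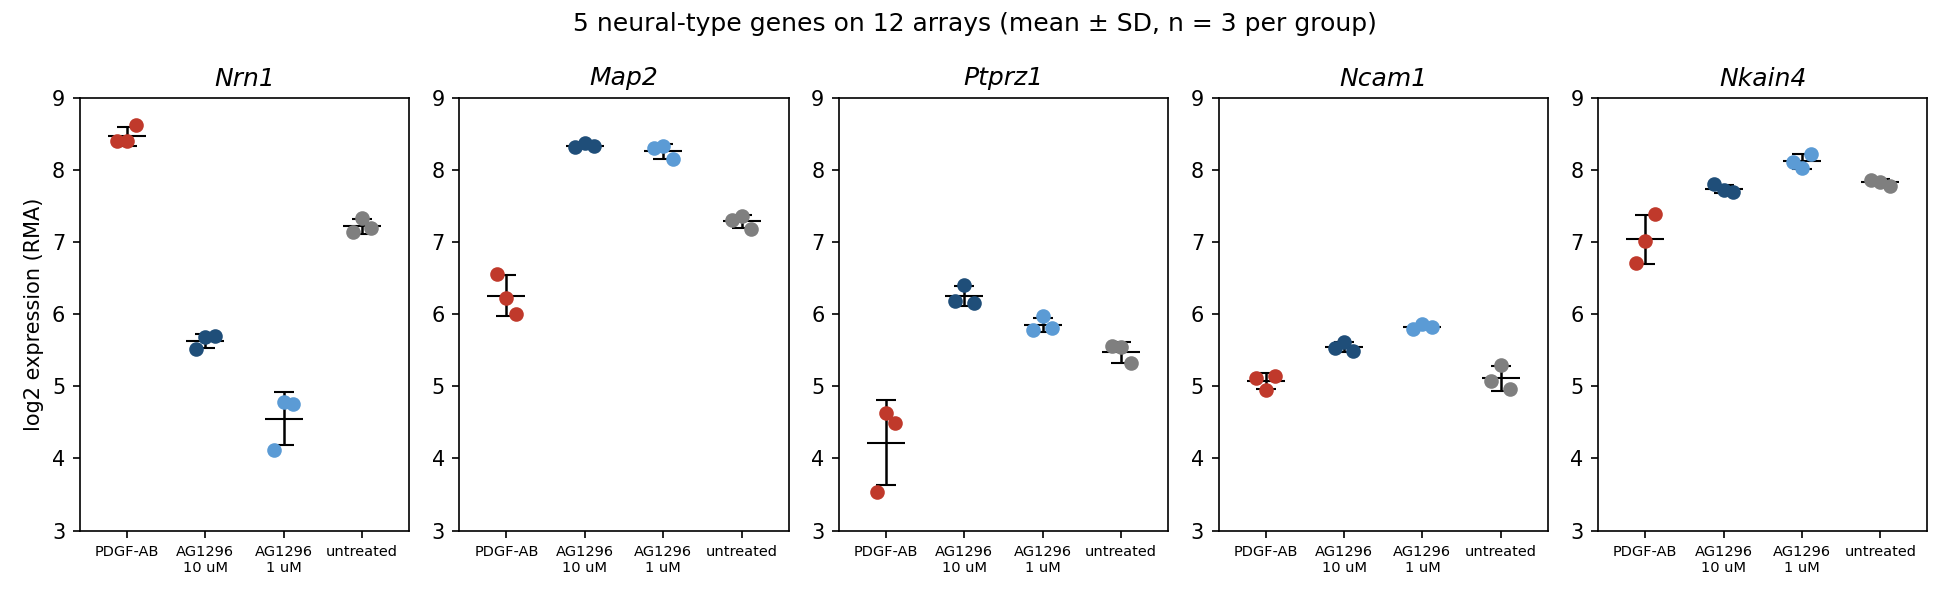
Log2 expression of each gene (y axis) on every array, by group (x axis). Points are single arrays, the long bar is the group mean and the whiskers are the SD (n = 3). Nrn1 is highest with PDGF-AB and lowest with AG1296 1 uM, and Map2 and Ptprz1 are lowest with PDGF-AB and highest with AG1296 10 uM.

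Counted together, the groups did not overlap for 4 of the 5 genes with PDGF-AB against untreated cells (13.3% of all genes, 6.74% higher and 6.61% lower), for 4 with AG1296 10 uM (18% of all genes, 9.78% higher and 8.19% lower) and for all 5 with AG1296 1 uM (20.3% of all genes, 10.1% higher and 10.2% lower). These contrasts chose the genes and share the untreated arrays, so the counts carry no further evidence. By direction of the group means, 1 of the 5, Nrn1, was higher with PDGF-AB and lower at both inhibitor doses, and Map2 and Ptprz1 were lower with PDGF-AB and higher at both doses. Ncam1 overlapped untreated cells with PDGF-AB, and Nkain4 with AG1296 10 uM.

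**Figure D2:**
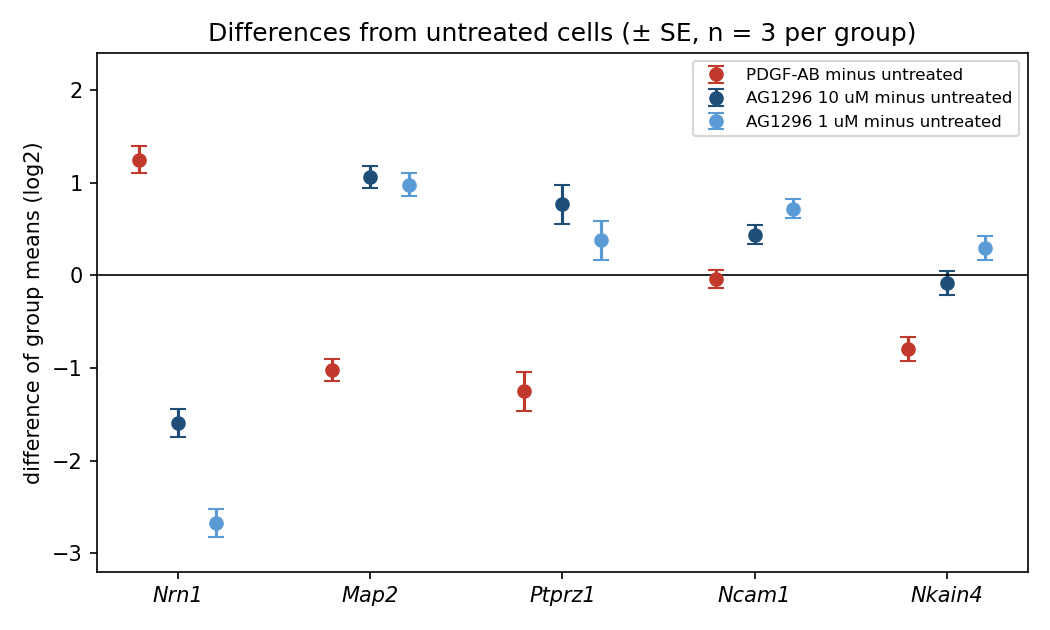
Difference between each treatment and untreated cells for the 5 genes, in log2 units (y axis), as the difference of group means with its SE (n = 3 arrays per group). Nrn1 lies above 0 with PDGF-AB and below 0 with both AG1296 doses, Map2 and Ptprz1 the other way round, and Ncam1 lies at -0.04 with PDGF-AB.

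The 2 doses of AG1296 were set beside each other as a description, with no test, since the genes were picked with these arrays for their response to AG1296. Nrn1 was at 5.63 ± 0.10 with AG1296 10 uM and 4.55 ± 0.37 with AG1296 1 uM (log2 mean ± SD, n = 3), which is 1.08 ± 0.15 higher on the log2 scale (SE), or 2.12-fold. Its level at 10 uM lay nearer to that of untreated cells.

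Map2 differed by 0.08 between AG1296 10 uM and 1 uM (95% interval -0.18 to 0.34) and Ptprz1 by 0.39 (-0.06 to 0.85). Ncam1 differed by -0.28 (-0.49 to -0.07) and Nkain4 by -0.38 (-0.67 to -0.09), both lower at 10 uM. The intervals are not adjusted for the number of genes, and the genes were picked with these arrays, so the intervals test no difference. The 3 arrays of each dose did not overlap for any of the 5 genes but Map2. Of all genes, 15.9% did not overlap (8.88% higher and 7.03% lower at 10 uM), and nothing is read from the count against this share.

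Partners and relatives of the 5 genes were then counted in 6 lists, and PDGF receptors, ligands and ERK feedback genes in another. Together the 7 lists held 105 measured genes besides the 5. The lists were chosen with earlier results of these data known, so their shares beside those of all genes are a description. With PDGF-AB 0 of 105 passed in the limma fit (0.331% of all genes passed), although 15 had an unadjusted p under 0.05 (14.3%, against 8.55% of all genes). With an intensity trend and robust moderation 5 passed, and the share of all genes under that setting is not given. With AG1296 10 uM 4 were higher and 4 lower (7.62%, against 1.88% of all genes, 1.21% higher and 0.672% lower). With AG1296 1 uM 4 were higher and 10 lower (13.3%, against 3.2% of all genes, 1.88% higher and 1.33% lower), and between AG1296 10 uM and 1 uM 2 were higher and 1 lower (2.86%, against 0.376% of all genes, 0.196% higher and 0.181% lower). The median log2 fold change over the 105 genes was 0.02 with PDGF-AB (0.010 over all genes), 0.02 at 10 uM (0.007) and -0.02 at 1 uM (-0.012). Of the 86 genes in the 6 neural lists alone, 0 passed with PDGF-AB, 5 at 10 uM AG1296 (5.81%, against 1.88% of all genes) and 8 at 1 uM (9.3%, against 3.2%). Over the 105 genes, the count at AG1296 10 uM was 3 to 5 without AG1296 1 uM replicate 1, any AG1296 10 uM array or any untreated array. Between doses the count over the 105 was 0 or 1 without any 1 AG1296 array and 0 in a fit of those 6 arrays.

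The list around Ptprz1 held 3 rises and 0 falls of 15 measured with AG1296 10 uM (1.88% of all genes passed). At 1 uM it held 2 rises and 2 falls (3.2% of all genes passed). Ptn encodes pleiotrophin, a secreted ligand of Ptprz1, and read 3.19, 3.00 and 3.20 with AG1296 10 uM and 2.65, 2.68 and 2.54 with AG1296 1 uM, against 3.62, 3.78 and 3.69 in untreated cells. It fell by 1.07 ± 0.15 on the log2 scale at 1 uM (SE, n = 3; limma, adjusted p = 0.00072), and the change of -0.57 at 10 uM did not pass (adjusted p = 0.0756). With PDGF-AB Ptn read 2.71, 3.45 and 3.08, a difference of -0.62 ± 0.15 on the log2 scale from untreated cells (adjusted p = 0.140). All of its values lay below every array's median of all genes, where background limits a fold.

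Magi3, a scaffold protein in the list around Ptprz1, read 6.16, 6.51 and 6.32 with AG1296 10 uM and 6.54, 6.69 and 6.69 with AG1296 1 uM, against 5.70, 5.85 and 5.79 in untreated cells. It rose by 0.55 at 10 uM (limma, adjusted p = 0.00837) and by 0.86 at 1 uM (adjusted p = 0.000164). The rise at 10 uM no longer passed in a fit of only the 6 arrays compared (adjusted p = 0.0573). Lrp1, an endocytic receptor that binds midkine, was at 9.20 ± 0.14 with AG1296 10 uM and 9.07 ± 0.05 with AG1296 1 uM, against 8.36 ± 0.06 in untreated cells (log2 mean ± SD, n = 3). It rose by 0.83 (limma, adjusted p = 0.00135) and 0.70 (adjusted p = 0.00272) at these doses. Sdc3, a heparan sulphate proteoglycan that binds pleiotrophin, rose by 0.49 at 10 uM (limma, adjusted p = 0.0161), a call lost without untreated replicate 1 or 3, without AG1296 10 uM replicate 2 or 3 and with only the 6 arrays compared (adjusted p up to 0.0863). The fifth gene of the list to pass, Tnc, a matrix ligand, fell by 0.32 at 1 uM (adjusted p = 0.0449); it was named after its values were seen, and its call was not recomputed under other settings.

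In the list around Nkain4 12 genes were measured, and 0 rose and 1 fell with AG1296 10 uM (1.88% of all genes passed). At 1 uM 1 rose and 1 fell (3.2% of all genes passed). Atp1b1, the beta-1 subunit of the sodium-potassium ATPase, read 7.23, 7.44 and 7.35 with AG1296 10 uM and 6.95, 7.16 and 6.92 with AG1296 1 uM, against 7.81, 7.91 and 7.68 in untreated cells. Neither inhibitor group overlapped untreated cells. Atp1b1 fell by 0.79 ± 0.10 at 1 uM (SE, n = 3; limma, adjusted p = 0.000294) and by 0.46 at 10 uM (adjusted p = 0.0232). At 10 uM this no longer passed without untreated replicate 1 or 2, without AG1296 10 uM replicate 1 or 3 and with only the 6 arrays compared (adjusted p up to 0.124).

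Fxyd1 encodes phospholemman, a regulator of the same ATPase. It was at 5.39 ± 0.09 with AG1296 10 uM and 5.98 ± 0.05 with AG1296 1 uM, against 5.05 ± 0.02 in untreated cells (log2 mean ± SD, n = 3), and rose by 0.93 at 1 uM (limma, adjusted p = 0.000136). Fxyd1 was lower at AG1296 10 uM than at 1 uM (log2 fold change -0.59, adjusted p = 0.0286), a call that no longer held without any 1 of the 6 AG1296 arrays or in a fit of those 6 (adjusted p up to 0.140). With PDGF-AB the 2 genes had log2 fold changes of 0.14 and 0.38, Atp1b1 and Fxyd1 in that order, neither of which passed (adjusted p = 0.730 and 0.229).

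Among 20 neuronal microtubule genes, relatives of Map2 in function, 1 rose and 0 fell with AG1296 10 uM (1.88% of all genes passed). At 1 uM 1 rose and 1 fell (3.2% of all genes passed). Dpysl3, a collapsin response mediator that binds tubulin, fell by 0.53 at 1 uM, with 9.59 ± 0.05 there and 10.12 ± 0.09 in untreated cells (log2 mean ± SD, n = 3; limma, adjusted p = 0.00537). Map6, a microtubule-stabilising protein, rose by 0.34 at 1 uM (adjusted p = 0.0348), and Map4, a microtubule-associated protein found outside neurons too, by 0.35 at 10 uM (adjusted p = 0.0443). The Map6 call was lost without any 1 of the untreated or AG1296 1 uM arrays or AG1296 10 uM replicate 1, and the Map4 call without any 1 of the untreated or AG1296 arrays (adjusted p up to 0.130 and 0.187). Median centring of each array ended both calls (0.0586 and 0.0939), as did a fit of the 6 arrays compared (0.074 and 0.122).

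In the list of neural immunoglobulin adhesion molecules 0 of 20 measured genes passed in any of the 4 comparisons (limma, lowest adjusted p = 0.097), and so it was for 10 genes of Ncam1 polysialylation and signalling (lowest adjusted p = 0.0646) and 12 neurotrophic and activity-dependent genes around Nrn1 (0.0678). Across these comparisons 0.331% to 3.2% of all genes passed. Gap43 was in both the Ncam1 signalling and the neurotrophic list and is counted in each. The unadjusted p was under 0.05 for 3 of 10 genes of Ncam1 signalling, 1 of 20 adhesion molecules and 1 of 12 neurotrophic genes with AG1296 10 uM (11.4% of all genes), and for 4, 2 and 1 of them with AG1296 1 uM (13.1%). It was so for 1, 1 and 0 with PDGF-AB (8.55% of all genes) and for 3, 0 and 3 between doses (9.07%), and differences between lists were not tested. With an intensity trend and robust moderation 3, 1 and 1 genes of the signalling, adhesion and neurotrophic lists passed with AG1296 1 uM, and 1 of the signalling list between doses. No share of all genes is given for that setting. Nrn1l, the neuritin-like gene, had a log2 fold change of -0.05 ± 0.15 with PDGF-AB (SE, n = 3; adjusted p = 0.959).

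**Figure D3:**
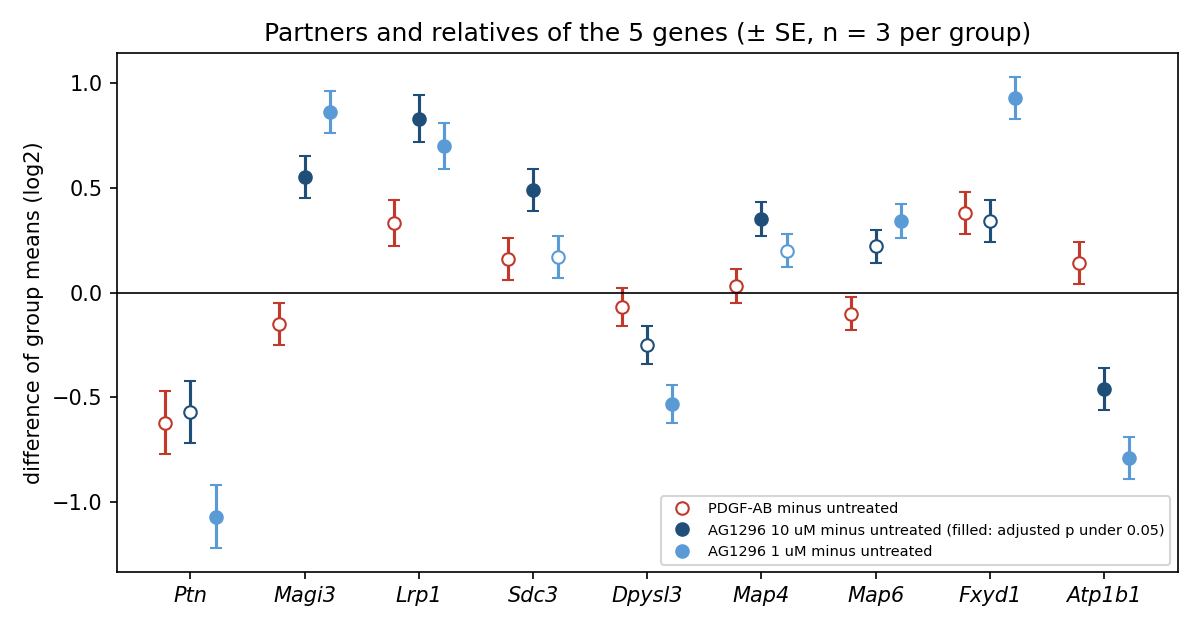
Difference from untreated cells in log2 units (y axis) of the genes named from the lists around Ptprz1, Map2 and Nkain4, as the difference of group means with its SE (n = 3 arrays per group). Filled points passed at adjusted p under 0.05 and open points did not. No point for PDGF-AB is filled, Atp1b1 and Ptn lie below 0 with both AG1296 doses, and Magi3 and Lrp1 lie above 0.

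The receptors and the feedback genes of their pathway were measured on the same arrays. Pdgfra, which encodes the sorted receptor, was at 9.55 ± 0.14 with PDGF-AB, 9.02 ± 0.03 at 10 uM AG1296 and 8.51 ± 0.05 at 1 uM, against 9.42 ± 0.07 in untreated cells (log2 mean ± SD, n = 3). Its means ran in the same group order as those of Nrn1, with PDGF-AB and untreated arrays overlapping. It fell by 0.91 at 1 uM (limma, adjusted p = 3.84e-05) and by 0.40 at 10 uM (adjusted p = 0.0361), and the 10 uM call was lost without any 1 array other than PDGF-AB replicate 1 or 3 (up to 0.152). Of the 19 genes in this list, 0 passed with PDGF-AB (limma, lowest adjusted p = 0.176, 0.331% of all genes passed). With the ligand 5 had an unadjusted p under 0.05 (8.55% of all genes). With an intensity trend and robust moderation 3 passed, with no share of all genes given. With AG1296 10 uM 0 rose and 3 fell (1.88% of all genes passed), and with AG1296 1 uM 0 rose and 6 fell (3.2%). Between doses 2, Pdgfra and the G1 cyclin Ccnd1, were higher at AG1296 10 uM than at 1 uM (0.376% of all genes passed). Ccnd1 was at 11.09 ± 0.04 with AG1296 10 uM and 10.56 ± 0.03 with AG1296 1 uM (limma, adjusted p = 0.00992). Between doses, each of the 6 AG1296 arrays was needed for the Pdgfra call (adjusted p up to 0.134 without 1), while Ccnd1 no longer passed when leaving out AG1296 10 uM replicate 1 or 3 or AG1296 1 uM replicate 1 or 2 (up to 0.072). Neither held in a fit of those 6 arrays (0.0921 and 0.0821). Dusp6, a phosphatase of ERK, fell by 0.78 at 10 uM (limma, adjusted p = 0.000647) and by 0.64 at 1 uM (adjusted p = 0.00198). The ETS factor Etv4 fell by 0.53 at 1 uM (adjusted p = 0.0387), a call that needed each of the untreated and AG1296 1 uM arrays (up to 0.165 without 1), and Pdgfrb passed in no comparison.

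Markers of other neural cells were set beside the 5 genes, since Ncam1 and Ptprz1 are also made by glia. Of 12 Schwann and glial markers measured, 1, the sodium channel Scn7a, passed with AG1296 (1.88% of all genes at 10 uM and 3.2% at 1 uM). Scn7a rose by 1.45 at 10 uM (limma, adjusted p = 5.42e-05) and 2.09 at 1 uM (adjusted p = 9.68e-07). The mean level of the 12 ran from 4.53 to 4.61 across arrays with AG1296 10 uM and 4.53 to 4.65 with AG1296 1 uM, against 4.35 to 4.43 in untreated cells. Without Scn7a it ran from 4.38 to 4.50 with AG1296 10 uM and 4.32 to 4.46 with AG1296 1 uM, against 4.31 to 4.41 in untreated cells. The defining genes Sox10 and S100b averaged 3.80 and 3.85 with AG1296 10 uM and 3.73 and 3.83 with AG1296 1 uM, against 3.67 and 3.67 in untreated cells, all below the median of all genes. In all, 9 of the 12 lay below that median in every group but PDGF-AB, where 10 did. Pmp22, a myelin protein gene that other cells also express, was at 10.87 ± 0.10 with PDGF-AB, 11.47 ± 0.04 at 10 uM AG1296 and 11.28 ± 0.13 at 1 uM, against 11.17 ± 0.09 in untreated cells, the order of the Ptprz1 means, and passed in no comparison. With PDGF-AB 0 of the 12 passed in the limma fit (0.331% of all genes) and 5 had an unadjusted p under 0.05 (8.55% of all genes). With an intensity trend and robust moderation 1 passed, and the share of all genes under that setting is not given. The list mean with PDGF-AB ran from 4.30 to 4.44. Uchl1 moved the other way from Ncam1, falling by 0.49 at 10 uM (adjusted p = 0.00545) and 0.39 at 1 uM (adjusted p = 0.0176, lost without untreated replicate 1 or 2 or AG1296 1 uM replicate 1 or 3 or with only the 6 arrays compared, up to 0.0873). The endothelial gene Tek rose by 0.73 at 1 uM, to 4.25 against 3.52 in untreated cells (limma, adjusted p = 0.000761), both below the median of all genes. The part of other cells in the levels of the 5 genes was not tested.

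Genes with the most similar pattern were found by Pearson's r over the 12 arrays, among genes whose SD over the arrays was at least 0.3. These values describe arrays that fall into 4 treatment groups, so r also reflects the differences between groups. For Nrn1 they were Prkar2b (0.987), Cap2 (0.983) and Cxcl12 (0.983), and for Map2 Ccn5 (0.991), Adamts5 (0.988) and Jag1 (0.982). For Ptprz1 they were Marcks (0.964), Ogn (0.959) and Plscr2 (0.955), for Ncam1 Adamts1 (0.969), Scn7a (0.968) and Il1rap (0.967), and for Nkain4 F3 (0.940), Gdf6 (0.930) and Upk3b (0.917). Cxcl12, a chemokine, averaged 7.19 with PDGF-AB, 6.13 at 10 uM AG1296 and 5.52 at 1 uM, against 6.62 in untreated cells, the same order as Nrn1 over a narrower range. F3, the tissue factor of coagulation, averaged 6.92 with PDGF-AB, 7.55 at 10 uM AG1296 and 8.31 at 1 uM, against 7.66 in untreated cells, the order of Nkain4. The choice depended on the measure: by Spearman's rho 1 of these 3 genes stayed for Nrn1, Ncam1 and Nkain4 each and 0 for Map2 and Ptprz1. Without the SD minimum all 3 stayed for Nrn1 and Map2, and 1 of 3 for each of the others.

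**Figure D4:**
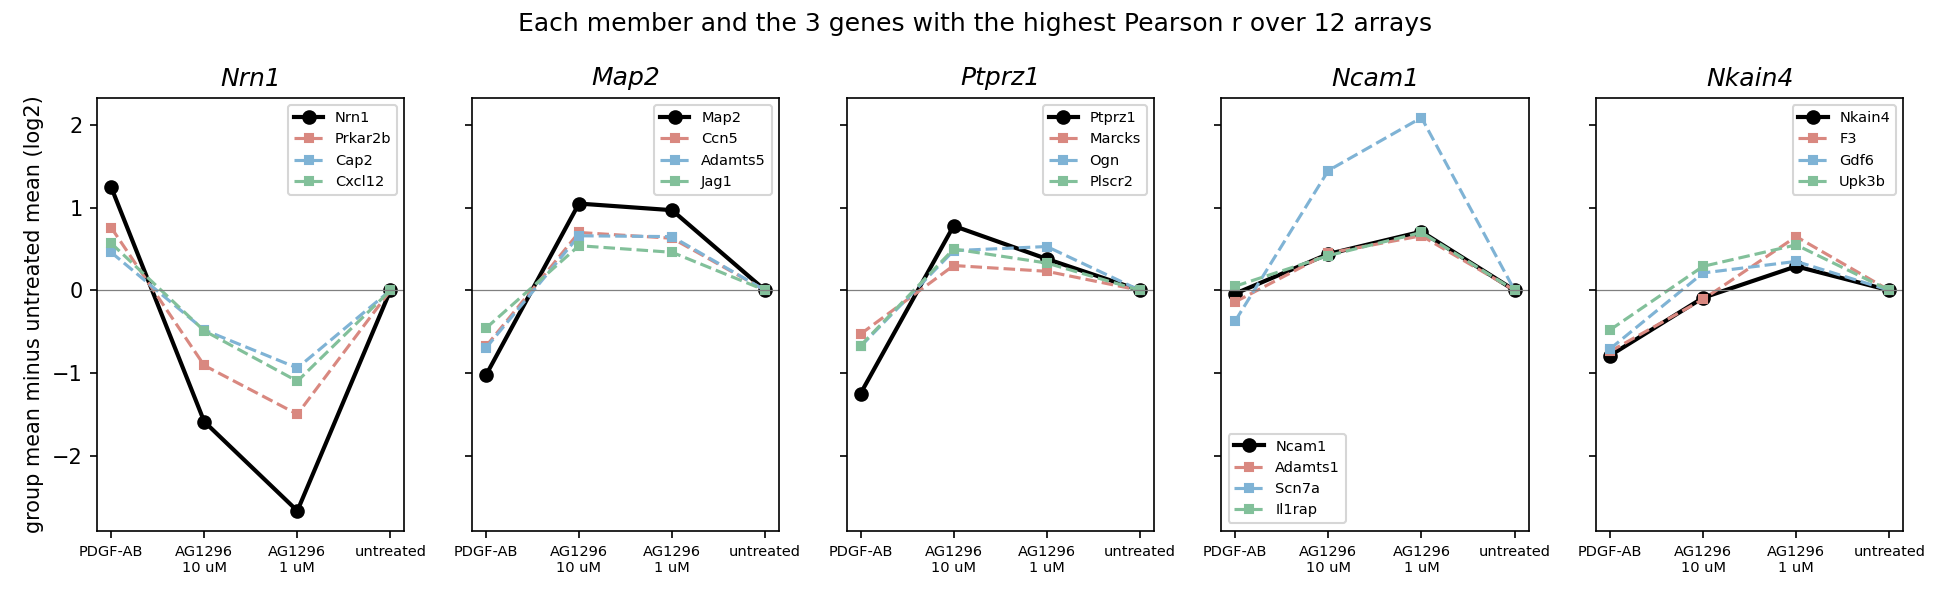
Group means minus the untreated mean, in log2 units (y axis), for each of the 5 genes (black) and the 3 genes with the highest Pearson r to it over 12 arrays (dashed). Lines only join the points of 1 gene. The 3 genes chosen for Nrn1 run in its order over a narrower range, and Scn7a runs in the order of Ncam1 over a wider range.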

How the data were processed

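Total RNA (100 ng, integrity number above 8.0) was labelled with biotin for 1-colour Affymetrix arrays, per the labels' protocols. The authors deposited 1 log2 value per probe set and array. The submitters' processing notes name RMA and limma without versions, and the range of the values fits a log2 scale. They were used as deposited, with no filter on dim probe sets.

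Of 28853 probe sets, 21789 had 1 gene symbol in the platform table, 1621 several and 5443 none. Only the first were used, and the probe set with the highest mean was kept per gene, which gave 19938 genes. By gene ID, 21698 of these probe sets matched a current record and 0 symbols changed. All 12 arrays entered 1 limma 3.58.1 fit (R 4.3.3) of the 4 group means, with empirical Bayes moderation, and a gene was called at a two-sided Benjamini-Hochberg adjusted p under 0.05 over all genes of a comparison. The number of arrays limits the precision. On 5 simulated data sets for AG1296 10 uM against 1 uM over 19938 genes, the test recovered 49.8% of changes of 0.5 and 99.2% of changes of 1 on the log2 scale, and 4.95% of its calls were false. The simulated noise was normal and independent between arrays, so these shares do not cover deviations that arrays have in common. Each set held 200 changed genes and took the moderated SD of each gene, while 75 genes were called between these doses in the data. The shares recovered depend on these settings and need not hold for the data.

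The 5 genes and the gene lists were chosen with earlier results of these data known. A test of the 5 genes between AG1296 doses had been planned and is not reported, because those arrays had also served to choose them. From each list up to 4 called genes were named by the size of their change, and 3 genes per member by likeness. Promoter windows are from RefSeq (GRCm38.p6). Alternatives were all probe sets, a filter on dim genes, quantile normalization, median centring, an intensity trend with robust moderation, a replicate block, the 6 arrays compared only, and leaving out each array.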

Additional observations from a re-analysis of the deposited data

How the results depend on the processing

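Under 7 alternative settings and without each of the 12 arrays, 378 of 380 differences of the 5 genes kept their sign. The exceptions belong to Ncam1 with PDGF-AB, whose difference of -0.04 ran from -0.11 to 0.05 without 1 array. Many of the differences could not change. Only quantile normalization, median centring and leaving out an array of the groups compared alter a difference of group means. The genes were also picked for their differences, so the count does not measure robustness. For Ptprz1 with PDGF-AB the difference ran from -1.46 to -0.91 and for Nrn1 with AG1296 1 uM from -2.78 to -2.46 without 1 array. Nrn1 between AG1296 10 uM and 1 uM ran from 0.87 to 1.19 without 1 array and was 1.08 in a fit of the 6 arrays compared.

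The counts called in the 7 lists were less stable. With dim genes filtered out, which left 10296 genes to test, they were 1 for PDGF-AB, 13 for AG1296 10 uM, 21 for AG1296 1 uM and 5 for AG1296 10 uM against 1 uM. With an intensity trend and robust moderation they were 5 for PDGF-AB, 15 for AG1296 10 uM, 25 for AG1296 1 uM and 10 for AG1296 10 uM against 1 uM. In fits of only the 6 arrays compared they were 3 for AG1296 10 uM, 11 for AG1296 1 uM and 0 for AG1296 10 uM against 1 uM, where fewer arrays estimate the spread. Without 1 array they ran from 0 to 2 for PDGF-AB (2 without PDGF-AB replicate 2), 3 to 11 for AG1296 10 uM, 10 to 15 for AG1296 1 uM and 0 to 4 for AG1296 10 uM against 1 uM (0 or 1 without any 1 AG1296 array). The share of all genes called under each of these settings is not given, so the counts are not read as a result about the lists. The cause of the changes with the moderation was not tested. Of 26 calls of named genes other than Dcn and the collagens, 15 held in every setting that tested them and 0 reversed.

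Arrays of different groups with the same replicate number did not deviate together throughout, with 9 of 18 such pairs correlated above 0.1 and 9 of 12 arrays closest to one of their own number. Such pairs ran from -0.031 to 0.298, and pairs of different numbers from -0.243 to 0.181. All pairs of replicate 2 lay at 0.154 to 0.298, and replicate 2 had the lowest median over all probe sets in every group. The labels give only the number, so what it stands for is not known, and the main fit leaves it out. With a replicate block the AG1296 10 uM count was 6. The block ended the calls of Map4 (0.0568) and Pdgfra (0.0515) at 10 uM and Etv4 at 1 uM (0.050). Background limits folds of genes near or below the array medians, here Nrn1 at AG1296 1 uM, Ptprz1 with PDGF-AB, Scn7a with PDGF-AB and in untreated cells, Ptn and Tek.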
